A study of Mus musculus with 16 samples.

Results

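The members are 37 genes of macrophages and antigen presentation, followed in the mouse heart after loss of CAP2, a protein of the cyclase-associated family that recycles actin monomers out of filaments. The genes were chosen by symbol, as a set that covers the identity of macrophages, the markers of resident (Lyve1, Timd4 and Folr2) and recruited (Ccr2) macrophages, and MHC class II. All 37 have a row in both tables, of 38087 gene rows in experiment A and 54232 in experiment B, and all 37 passed the filter on low values in both experiments. Experiment A compared whole hearts of 86-week-old C57BL/6 females, 3 of genotype CAP2 -/- and 3 wild type (WT). Experiment B compared hearts of 13-week-old C57BL/6 mice that all carry the loxP allele on both copies, 4 with Cre under the Myh6 promoter (Cre+; 3 females and 1 male, replicate 4) and 5 without Cre (Cre-; 3 females and 2 males, replicates 4 and 5). Myh6 is active in cardiomyocytes and not in macrophages, so in Cre+ hearts the deletion is driven in another cell type than the one the 37 genes mark. The Cre- hearts carry no Cre transgene, so the transgene and the deletion cannot be told apart there.

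Libraries of the older mice were 10750175 to 27440478 estimated counts deep, and levels are given as CPM, which scale the counts to a common library total. The deposited values of experiment B are normalized counts of unknown depth, with nuclear genes adding up to between 3815980 and 4044523 per library. Cap2 itself was at 8.36 to 16.1 CPM in CAP2 -/- hearts, against 197 to 228 CPM in WT hearts, and at 33 to 87 normalized counts in Cre+ hearts, against a median of 342 and a highest value of 878 in Cre- hearts. The 10 cardiomyocyte markers summed to 115100 to 127600 CPM in CAP2 -/- hearts, against 108400 to 115100 CPM in WT hearts, so the markers of heart muscle were present. Genes of the mitochondrial genome took 23.0% to 52.7% of each Cre+ library, against 30.4% to 69.5% in Cre- libraries.

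The heart holds macrophages that settle before birth and renew themselves in place, known by Timd4, Lyve1 and Folr2, and macrophages that descend from blood monocytes and carry the chemokine receptor Ccr2. MHC class II molecules present peptides from ingested proteins to CD4 T cells, and their genes are switched on together by the co-activator CIITA, which is held at the X and Y boxes of their promoters by a group of DNA-binding proteins. In injured hearts, macrophages can take on other states, among them a lipid-handling state marked by Trem2 and Gpnmb and an alternatively activated state, driven by interleukin 4 through STAT6, that in mice is marked by Retnla.

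One of the 37 genes passed the test in experiment A, and none did in experiment B. In 86-week CAP2 -/- hearts Retnla fell, and no other member reached an adjusted p under 0.05 in edgeR's quasi-likelihood test (the threshold for a call throughout, Benjamini-Hochberg adjusted over all genes tested). That is 1 of 37 members, beside 1.35% of the 16297 genes tested. It was 1 lower and 0 higher, beside 0.509% of all genes called lower and 0.841% called higher. In 13-week Cre+ hearts the member nearest to a call was Trem2, at 3.79 times the Cre- level with an adjusted p of 0.0618 (limma). No member was called there, beside 1.88% of the 12141 genes tested (0.947% higher and 0.931% lower).

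The members' values leaned to the higher side in Cre+ hearts. Their log2 difference was above 0 for 33 of 37, beside 41.5% of all genes tested, and their median was 1.02, beside -0.116 over all genes. Unadjusted limma p-values were under 0.05 for 14 members, all higher in Cre+, beside 22.1% of all genes (7.89% higher and 14.2% lower). The members share the same 9 libraries, and single libraries moved the size of this lean and the count of small p-values. Cre+ replicate 3 held the highest value of 19 members and Cre- replicate 5 that of 10, while Cre- replicate 1 held the lowest value of 16 and Cre- replicate 4 that of 15. Without Cre+ replicate 3 the count of members with an unadjusted p under 0.05 was 6, without Cre+ replicate 4 it was 7 and without Cre- replicate 1 it was 6. Without Cre- replicate 3 it was 21. The share of all genes at that p is not given here for these fits. Genes called over the whole table numbered 48, 57, 48 and 82 in them, in the same order, against 228 in the main fit. Leaving out a library thus moved counts over all genes too. The count above 0 ran from 30 to 34 of 37 over the 9 fits that each left out 1 library, beside 38.6% to 45.3% of all genes. The members' median log2 difference ran from 0.75 to 1.23 over these fits, beside -0.17 to -0.06 over all genes. In these heart samples, which mix cell types, a change in the number of cells of a type and a change in the RNA per cell cannot be told apart.

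In CAP2 -/- hearts 24 of 37 members had a log2 difference above 0, beside 50.9% of all genes, with a median of 0.16 beside 0.006. This lean rested on 1 library. Without CAP2 -/- replicate 2, which held the highest value of 17 members, 18 of 37 were above 0 and the median was -0.03. Unadjusted edgeR p-values were under 0.05 for 2 members that were higher (Cd14 and Ctss) and 2 that were lower (Retnla and H2-Ab1), beside 10.4% of all genes (5.11% higher and 5.32% lower).

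**Figure D1:**
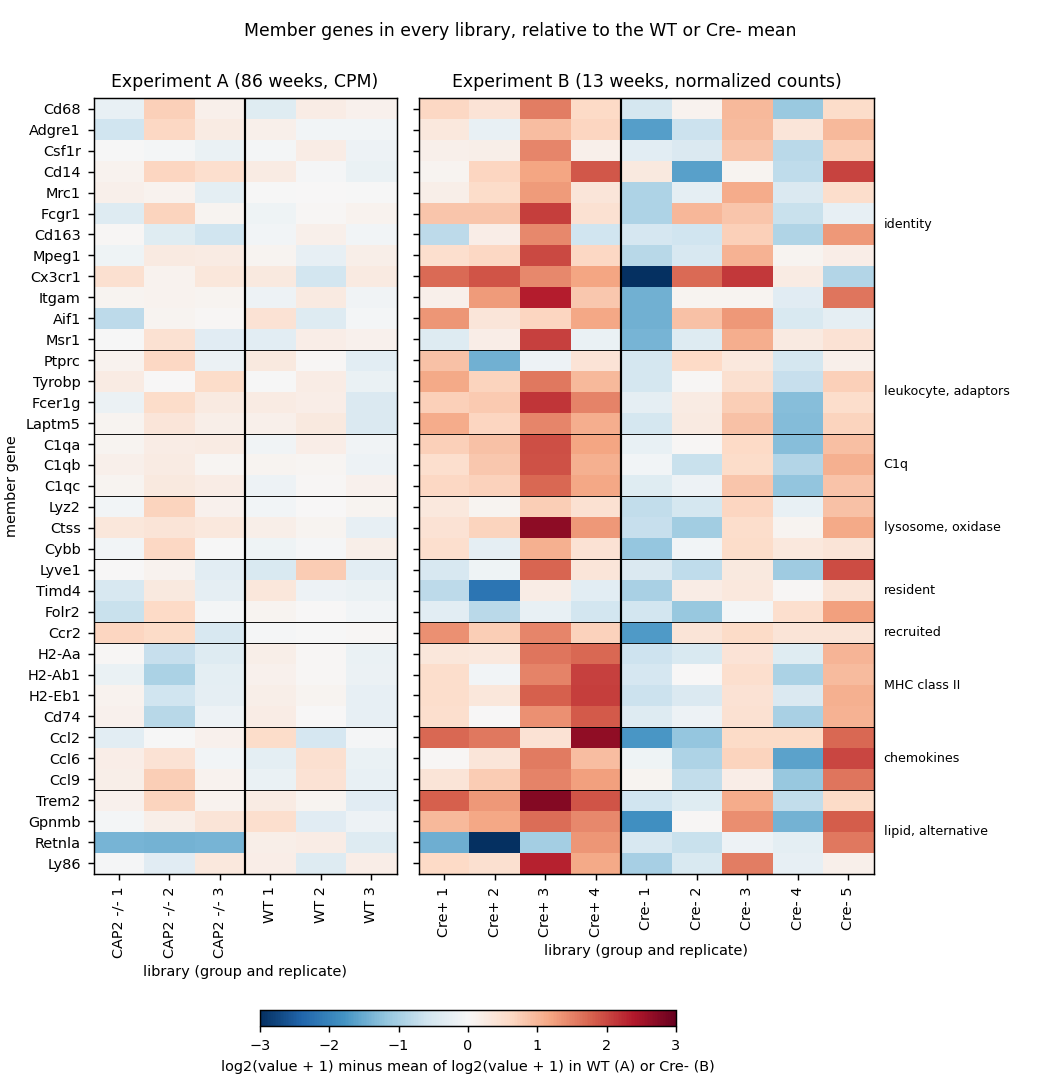
Level of each of the 37 genes in every library, as log2(value + 1) minus the mean of log2(value + 1) over WT libraries (experiment A, CPM) or Cre- libraries (experiment B, normalized counts), with colours cut at the ends of the scale. The Retnla row is blue in the 3 CAP2 -/- libraries. In experiment B whole columns stand out, such as the red column of Cre+ replicate 3 and the blue columns of Cre- replicates 1 and 4.

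**Figure D2:**
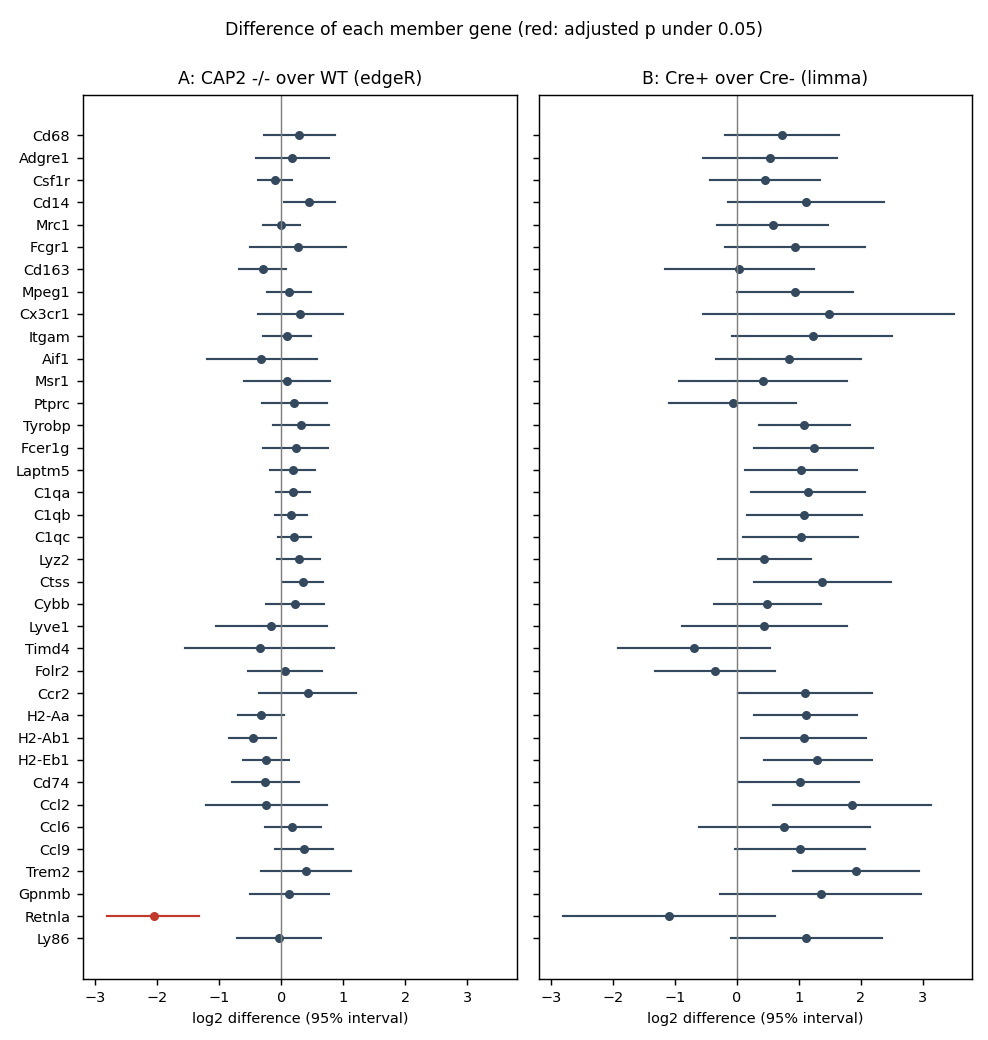
Log2 difference of each gene with its 95% interval, CAP2 -/- over WT (left, edgeR) and Cre+ over Cre- (right, limma). Retnla in experiment A is the only gene in red, which marks an adjusted p under 0.05. In experiment B 33 of 37 points lie right of 0, with wide intervals.

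The general macrophage genes showed no call and overlapping groups. Csf1r, the receptor for the growth factor on which macrophages depend, had 54.4, 52.8 and 47.8 CPM in CAP2 -/- hearts, against 52.7, 64.3 and 49.2 CPM in WT hearts. The groups overlapped, at a log2 difference of -0.10 (SE 0.13, 95% interval -0.38 to 0.18, edgeR adjusted p = 0.872). In experiment B Csf1r had 249, 254, 620 and 251 normalized counts in Cre+ hearts, against 129 to 405, with a median of 182, in Cre- hearts. Replicate 3 stood well above the other Cre+ hearts, which lay close together and below the top 2 Cre- hearts. Its log2 difference was 0.45 (SE 0.41, interval -0.44 to 1.34, limma adjusted p = 0.534). Exons of Csf1r overlap those of Hmgxb3 on the other strand, and the strand setting of the counting is not given in the sources used here, so its values are uncertain by that share.

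Cd68, a lysosomal glycoprotein of macrophages, had 6.42, 13.2 and 8.59 CPM in CAP2 -/- hearts, against 5.78, 9.13 and 8.51 CPM in WT hearts. It had 65, 56, 123 and 64 normalized counts in Cre+ hearts, against 29, 45, 83, 19 and 62 in Cre- hearts. Both pairs of groups overlapped, with Cre+ replicate 3 again the highest. Log2 differences were 0.29 in experiment A (edgeR adjusted p = 0.784) and 0.73 in experiment B (limma adjusted p = 0.324).

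Adgre1, which encodes the F4/80 antigen and is listed under its older symbol Emr1 in experiment A, had 9.43, 23.5 and 17.7 CPM in CAP2 -/- hearts, against 16.7, 14.01 and 14.1 CPM in WT hearts. It had 46, 31, 70 and 58 normalized counts in Cre+ hearts, against 11, 23, 72, 47 and 73 in Cre- hearts. In both experiments the lowest and the highest library of the pair spread wider than the groups stood apart, at log2 differences of 0.18 (edgeR adjusted p = 0.888) and 0.54 (limma adjusted p = 0.537).

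The 12 identity genes together (Cd68, Adgre1, Csf1r, Cd14, Mrc1, Fcgr1, Cd163, Mpeg1, Cx3cr1, Itgam, Aif1 and Msr1) summed to 185 to 219 CPM in CAP2 -/- hearts, against 186 to 203 CPM in WT hearts. They summed to 868 to 2124 normalized counts in Cre+ hearts, against 491 to 1443 in Cre- hearts. The sums thus overlapped in both experiments. Log2 differences of the 12 ran from -0.32 to 0.45 in experiment A (8 above 0) and from 0.04 to 1.48 in experiment B (12 above 0), and the smallest adjusted p was 0.400 for Cd14, the co-receptor for bacterial lipopolysaccharide, in edgeR and 0.226 for Mpeg1, a pore-forming protein of phagocytes, in limma. Mrc1, the mannose receptor, had the value nearest to 0 in experiment A, at 34.0 ± 5.59 CPM in CAP2 -/- hearts and 34.0 ± 0.341 CPM in WT hearts (SD, n = 3 each; log2 interval -0.30 to 0.30). Exons of Itgam are shared on the same strand with the gene Gm49368, and those of Cx3cr1 overlap an antisense gene, so reads of these 2 members could be split or mixed.

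Resident macrophage genes showed no shared direction. Lyve1, a hyaluronan receptor found on resident macrophages and on lymphatic endothelium, had 34.3, 36.5 and 27.0 CPM in CAP2 -/- hearts, against 24.7, 58.6 and 27.3 CPM in WT hearts. It had 88, 113, 415 and 160 normalized counts in Cre+ hearts, against 91, 73, 153, 59 and 480 in Cre- hearts. One library in each of WT, Cre+ and Cre- lay far above its group, and each pair of groups overlapped. Its log2 difference was -0.16 in experiment A (interval -1.05 to 0.73, edgeR adjusted p = 0.931) and 0.44 in experiment B (interval -0.89 to 1.77, limma adjusted p = 0.694), and the first turned to 0.33 without WT replicate 2 and the other to -0.036 without Cre+ replicate 3. The 6 lymphatic endothelial markers summed to 106 to 113 CPM in CAP2 -/- hearts, against 122 to 140 CPM in WT hearts, and to 321 to 435 normalized counts in Cre+ hearts, against 182 to 725 in Cre- hearts. Their part in the Lyve1 values was not tested.

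Timd4, a phosphatidylserine receptor that defines long-lived resident macrophages, was the lowest member of experiment A. It had 0.362, 1.30 and 0.572 CPM in CAP2 -/- hearts, from 4 to 18.2 estimated counts, against 1.39, 0.706 and 0.644 CPM in WT hearts, from 7.67 to 38.6 estimated counts. It had 7, 2, 15 and 10 normalized counts in Cre+ hearts, against 6, 15, 16, 13 and 17 in Cre- hearts. It was 1 of 2 members below 0 in both experiments, at log2 -0.35 (interval -1.55 to 0.85, edgeR adjusted p = 0.892) and -0.70 (interval -1.92 to 0.53, limma adjusted p = 0.480). At these low counts neither estimate was distinguished from 0.

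Folr2, a folate receptor of resident macrophages, had 6.08, 15.9 and 9.77 CPM in CAP2 -/- hearts, against 10.8, 10.2 and 9.60 CPM in WT hearts. It had 13, 9, 14 and 11 normalized counts in Cre+ hearts, against 11, 7, 16, 24 and 40 in Cre- hearts. The 2 male Cre- hearts held the highest values, and with females alone the log2 difference was 0.12 in place of -0.35 (limma adjusted p = 0.664 over both sexes). In experiment A it was 0.06 (edgeR adjusted p = 0.968). Exons of Folr2 overlap those of an antisense gene, Gm10602, which makes its values uncertain.

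Ccr2, the receptor for Ccl2 that brings monocytes out of the bone marrow into tissue, was the sole recruited-macrophage marker of the set. It had 4.89, 4.65 and 1.72 CPM in CAP2 -/- hearts, against 2.67, 2.76 and 2.87 CPM in WT hearts, so that 2 CAP2 -/- hearts lay above the WT hearts and the other below them. They gave a log2 difference of 0.43 (SE 0.37, interval -0.36 to 1.21, edgeR adjusted p = 0.772). It had 41, 26, 44 and 25 normalized counts in Cre+ hearts, against 4, 20, 23, 20 and 20 in Cre- hearts. Every Cre+ heart was above every Cre- heart, at a log2 difference of 1.10 (SE 0.50, interval 0.01 to 2.18, limma adjusted p = 0.221). Such separation held for 2 of 37 members in that direction, Ccr2 and Trem2, beside 3.87% of all genes, and for no member in the other direction, beside 4.79%. Without Cre- replicate 1, the heart with 4 normalized counts, the log2 difference was 0.58 (limma adjusted p = 0.337).

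Set against the resident genes within each library, Ccr2 did not separate the groups. Per 100 units of the Lyve1, Timd4 and Folr2 sum there were 37.96, 20.97, 9.91 and 13.8 units of Ccr2 in Cre+ hearts, against 3.70, 21.1, 12.4, 20.8 and 3.72 in Cre- hearts. In experiment A there were 12.02, 8.66 and 4.60 in CAP2 -/- hearts, against 7.23, 3.98 and 7.65 in WT hearts. The lowest Cre+ value lay below 3 of the 5 Cre- values.

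**Figure D3:**
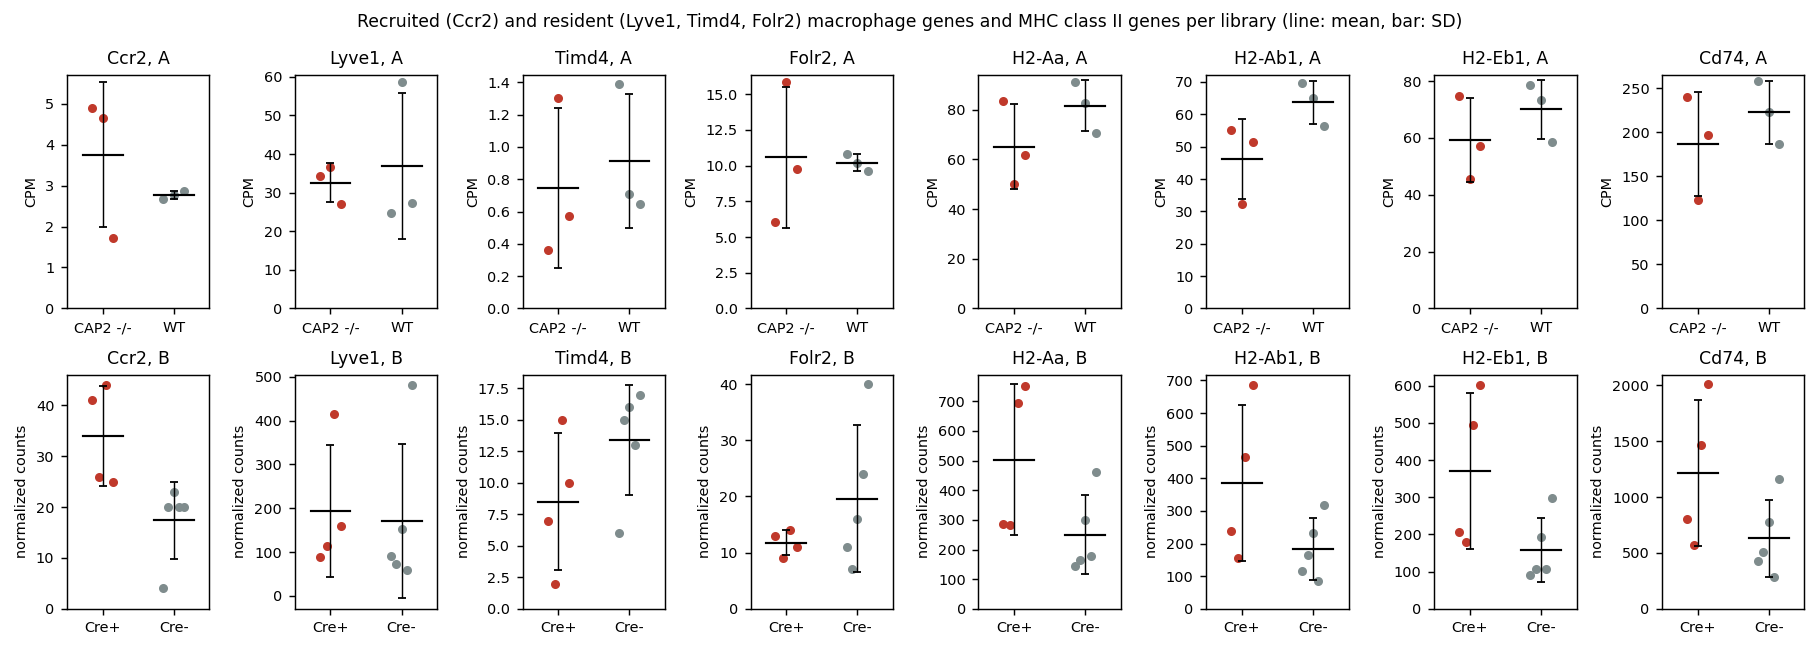
Levels of Ccr2, of Lyve1, Timd4 and Folr2 and of 4 MHC class II genes per library (points), with the group mean (line) and SD (bar), CAP2 -/- and WT in CPM (upper row) and Cre+ and Cre- in normalized counts (lower row). MHC class II means are below WT in the upper row and above Cre- in the lower row, with overlapping points except for H2-Ab1 in CAP2 -/- against WT. Ccr2 separates Cre+ from Cre- without overlap.

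The MHC class II genes H2-Ab1, H2-Aa and H2-Eb1 lie side by side on chromosome 17 (chr17:34257689-34269419, chr17:34282744-34287823 and chr17:34305867-34316674, mm10). To show the elements through which these genes are controlled together, the 250 bases before the start of H2-Eb1 (chr17:34305617-34305866, plus strand) and of H2-Aa (chr17:34287824-34288073, minus strand) follow from RefSeq's GRCm38.p6, 5′ to 3′. Capitals mark the X box (searched by its first letters, CTAGNAAC) and the Y box (searched as CTGATTGG), on both strands.
H2-Eb1: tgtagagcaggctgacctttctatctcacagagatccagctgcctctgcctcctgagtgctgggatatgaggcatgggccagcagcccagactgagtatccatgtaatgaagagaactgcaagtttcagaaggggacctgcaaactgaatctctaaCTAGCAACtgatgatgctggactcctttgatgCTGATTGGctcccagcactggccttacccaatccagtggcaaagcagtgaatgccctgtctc
H2-Aa: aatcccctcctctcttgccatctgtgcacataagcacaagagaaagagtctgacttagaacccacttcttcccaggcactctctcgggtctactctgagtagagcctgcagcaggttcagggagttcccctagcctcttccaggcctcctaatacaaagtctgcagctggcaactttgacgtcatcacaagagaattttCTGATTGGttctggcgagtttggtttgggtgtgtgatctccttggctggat

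In H2-Eb1 the X box letters begin 94 bases before the start and the Y box 62 bases before it, without overlap, and in H2-Aa the Y box begins 51 bases before the start. The Y box letters occur in 3.83% of the 32851 promoter windows of this length in the table and the X box letters in 3.06%. Of the 27 members with a window in the table, these 2 hold a Y box and H2-Eb1 alone an X box in these letters. Such a match describes the letters only, and a box that departs from them is not marked. The search thus does not show that H2-Aa lacks an X box.

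All 4 MHC class II genes were below WT in experiment A and above Cre- in experiment B, and none passed the test in either. H2-Aa, the alpha chain of I-A, had 83.6, 49.9 and 61.6 CPM in CAP2 -/- hearts, against 91.3, 82.8 and 70.8 CPM in WT hearts. CAP2 -/- replicate 2 was lowest and replicate 1 lay inside the WT range. The log2 difference was -0.33 (SE 0.17, interval -0.70 to 0.04, edgeR adjusted p = 0.540).

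H2-Ab1, the beta chain of I-A, had 55.1, 32.2 and 51.5 CPM in CAP2 -/- hearts, against 69.6, 65.1 and 56.5 CPM in WT hearts. It was 1 of 3 members whose groups did not overlap in experiment A, with Retnla (also lower) and Ctss (higher), beside 15.6% of all genes (7.63% higher and 8% lower). Its log2 difference was -0.46 (SE 0.18, interval -0.85 to -0.08) with an edgeR adjusted p of 0.343, which was 0.0292 when genes with few counts were kept in the test.

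H2-Eb1, the beta chain of I-E, had 74.8, 45.6 and 57.3 CPM in CAP2 -/- hearts, against 78.7, 73.2 and 58.6 CPM in WT hearts. Cd74, the invariant chain that guides class II molecules to the peptide-loading compartment, had 240, 123 and 197 CPM in CAP2 -/- hearts, against 259, 223 and 186 CPM in WT hearts. In both genes CAP2 -/- replicate 2 was the lowest library and the groups overlapped, at log2 differences of -0.25 (interval -0.61 to 0.12, edgeR adjusted p = 0.696) and -0.26 (interval -0.80 to 0.29, edgeR adjusted p = 0.794). Without that library the 4 differences shrank to between -0.26 (H2-Ab1) and -0.028 (Cd74).

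In experiment B, H2-Aa had 287, 282, 694 and 751 normalized counts in Cre+ hearts, against 146 to 463, with a median of 177, in Cre- hearts. H2-Ab1 had 238, 155, 464 and 687 in Cre+ hearts, against 85 to 319, with a mean of 184 ± 94.1 (SD, n = 5), in Cre- hearts. Cre+ replicates 3 and 4 were above every Cre- heart in both genes, and the other 2 Cre+ hearts lay among the Cre- hearts. The log2 difference was 1.11 for H2-Aa (SE 0.38, interval 0.28 to 1.93, limma adjusted p = 0.134) and 1.08 for H2-Ab1 (SE 0.46, interval 0.07 to 2.09, limma adjusted p = 0.202).

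H2-Eb1 had 207, 181, 495 and 603 normalized counts in Cre+ hearts, against 91, 106, 192, 106 and 297 in Cre- hearts, and Cd74 had 806, 569, 1467 and 2009 in Cre+ hearts, against 432, 508, 778, 287 and 1159 in Cre- hearts. The same 2 Cre+ hearts led, replicate 4, the male, ahead of replicate 3. The log2 difference was 1.30 for H2-Eb1 (SE 0.40, interval 0.43 to 2.18, limma adjusted p = 0.109) and 1.01 for Cd74 (SE 0.44, interval 0.04 to 1.97, limma adjusted p = 0.207). Whether these differences themselves differ between 86-week CAP2 -/- and 13-week Cre+ hearts was not tested, since age, allele, library kit and normalization all differ between the experiments.

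Per unit of the 12 identity genes, the 4 MHC class II genes summed to 1.77, 1.18, 1.47 and 4.02 in Cre+ hearts, against 1.599, 1.52, 1.04, 1.24 and 1.65 in Cre- hearts. Replicate 4 alone was far above the rest, and 2 Cre+ hearts lay inside the Cre- range. In experiment A the ratio was 2.40, 1.15 and 1.98 in CAP2 -/- hearts, against 2.602, 2.19 and 1.997 in WT hearts, so 2 of the 3 CAP2 -/- hearts were below the lowest WT heart, 1 of them narrowly.

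Other genes of antigen presentation did not pass the test either. Of 14 further genes of class II loading and co-stimulation, 12 were tested in experiment A with a median log2 of -0.12 and 9 in experiment B with a median of 0.46, and none was called. The nearest were Ifi30, a lysosomal reductase that unfolds antigens, at -0.32 in experiment A (edgeR adjusted p = 0.661) and H2-DMb1, a chain of the peptide-exchange molecule, at 1.15 in experiment B (limma adjusted p = 0.184). Of 8 transcription factors of class II promoters, all 8 were tested in experiment A (median 0.09) and 7 in experiment B (median -0.28) with no call. All 14 class I genes were tested in both, at medians of -0.02 and 0.32 with no call, and the smallest p in experiment B belonged to B2m, the light chain of class I, at 0.77 (limma adjusted p = 0.174).

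Retnla, a secreted cysteine-rich protein (RELM alpha) that marks alternatively activated macrophages in mice, gave the one call of the set (chr16:48842551-48844461, mm10). It had 1.12, 1.08 and 1.12 CPM in CAP2 -/- hearts, from 12.4, 15.1 and 17.6 estimated counts, against 5.25, 5.48 and 3.23 CPM in WT hearts, from 146, 59.5 and 55.1 estimated counts. The 3 CAP2 -/- hearts were almost level with each other and each WT heart was well above them. Retnla fell by 2.06 on the log2 scale (SE 0.35, interval -2.81 to -1.32, edgeR adjusted p = 0.00417), to 0.239 times the WT level, and was lower in 3 of 3 CAP2 -/- hearts. The call held in all 11 settings tried, with adjusted p-values from 1.6e-05 to 0.0315, and the authors' deposited table gives a log2 fold change of -2.04. Per 100 units of the identity genes there were 0.594, 0.492 and 0.605 units of Retnla in CAP2 -/- hearts, against 2.74, 2.70 and 1.73 in WT hearts. The identity sums were close in both groups (185 to 219 and 186 to 203 CPM), so this ratio repeats the Retnla levels and adds no separate support.

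The 250 bases before RefSeq's start of Retnla, which lies within the GENCODE gene (chr16:48842359-48842608, plus strand, GRCm38.p6) are shown because this gene is the one that changed and is a known STAT6 target in mouse macrophages. Capitals mark a pair of STAT half-sites (TTC and its reverse complement GAA with 4 bases between them, a pattern that reads the same on both strands).
Retnla: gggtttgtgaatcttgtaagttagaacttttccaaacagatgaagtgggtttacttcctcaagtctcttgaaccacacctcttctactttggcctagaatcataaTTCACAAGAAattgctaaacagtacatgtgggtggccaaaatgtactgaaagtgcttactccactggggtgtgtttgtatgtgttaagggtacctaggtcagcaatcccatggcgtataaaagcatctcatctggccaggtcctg

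The match begins 145 bases before the start. These letters occur in 5.85% of the 32851 windows and, among the 27 members with a window, in Retnla and Ly86, so they do not set Retnla apart from many other genes.

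In experiment B Retnla had 7, 0, 10 and 55 normalized counts in Cre+ hearts, against 15, 13, 19, 17 and 66 in Cre- hearts. The 3 female Cre+ hearts were below every Cre- heart and the male Cre+ heart was above 4 of the 5. The log2 difference was -1.10 (SE 0.78, interval -2.80 to 0.61, limma adjusted p = 0.420), and it ran from -1.89 to -0.28 over the alternatives. A male library held the highest value of each group.

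**Figure D4:**
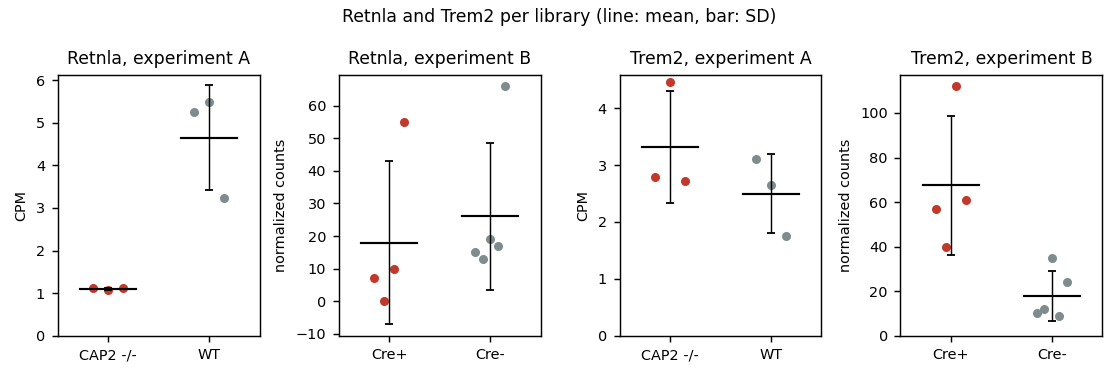
Retnla and Trem2 per library (points) with the group mean (line) and SD (bar), CAP2 -/- and WT in CPM and Cre+ and Cre- in normalized counts. Retnla sits near 1.1 CPM in all 3 CAP2 -/- hearts, below the 3 WT hearts. Trem2 is at 40 to 112 in Cre+ hearts, above the 9 to 35 of Cre- hearts.

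Trem2, a lipid-sensing receptor of macrophages, had 57, 40, 112 and 61 normalized counts in Cre+ hearts, against 10, 12, 35, 9 and 24 in Cre- hearts. Each Cre+ heart was above each Cre- heart, and the log2 difference was 1.92 (SE 0.46, interval 0.90 to 2.94, limma adjusted p = 0.0618). It was called in 5 of the 17 alternatives, where the limma adjusted p was 0.0365 with no filter on low values, 0.0372 with TMM scaling, 0.0175 with quantile normalization, 0.0210 with a replicate block and 0.0330 without Cre- replicate 5. Over all alternatives it ran up to 0.232, without Cre+ replicate 4. Per 100 units of the identity genes there were 6.57, 3.98, 5.27 and 6.05 units of Trem2 in Cre+ hearts, against 2.04, 1.93, 2.43, 1.71 and 1.77 in Cre- hearts, with no overlap although Cre+ replicate 3 no longer led.

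In experiment A Trem2 had 2.80, 4.46 and 2.72 CPM in CAP2 -/- hearts, against 3.11, 2.64 and 1.75 CPM in WT hearts. The groups overlapped, at a log2 difference of 0.40 (interval -0.33 to 1.13, edgeR adjusted p = 0.771). Relative to the identity genes it stood at 1.48, 2.03 and 1.47 per 100 units in CAP2 -/- hearts, against 1.62, 1.30 and 0.938 in WT hearts, which also overlapped.

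**Figure D5:**
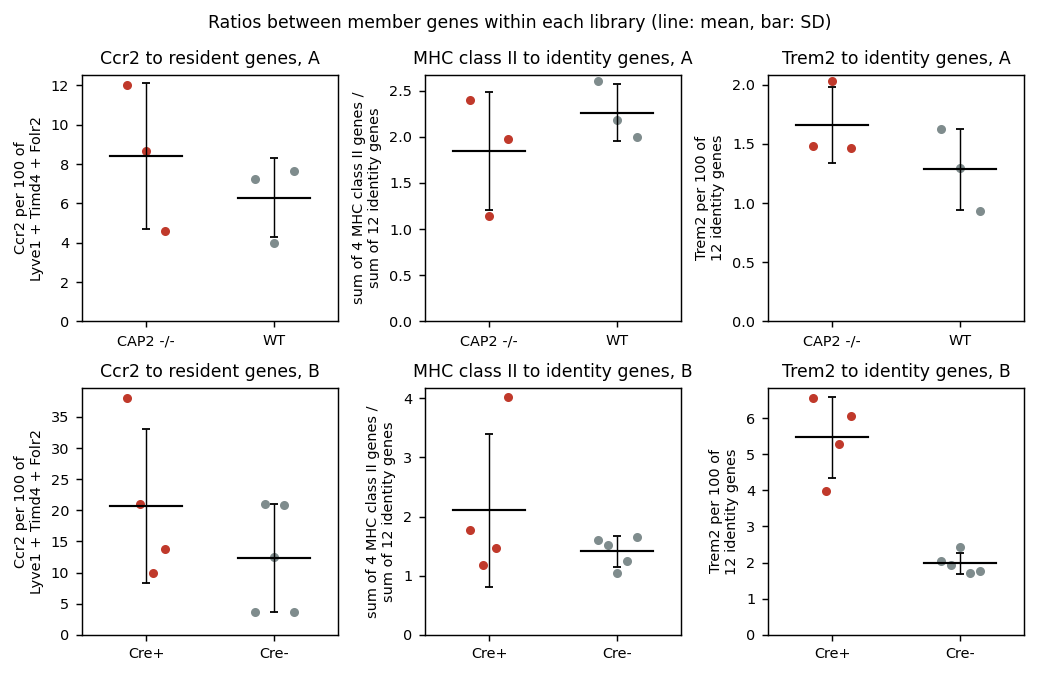
Ratios between member genes within each library (points), with group mean (line) and SD (bar): Ccr2 per 100 units of the resident genes, the MHC class II sum per unit of the 12 identity genes, and Trem2 per 100 units of the identity genes. Of these 6 panels, only that of Trem2 in Cre+ against Cre- shows groups that do not overlap, at 3.98 to 6.57 in Cre+ and 1.71 to 2.43 in Cre-.

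Gpnmb, a glycoprotein of lipid-laden macrophages, and Ly86, a partner of the toll-like receptor homologue RP105, were not called. Gpnmb averaged 26.0 ± 5.71 normalized counts in Cre+ hearts (SD, n = 4) and 15.8 ± 15.5 in Cre- hearts (SD, n = 5), a log2 difference of 1.35 (interval -0.27 to 2.97, limma adjusted p = 0.299). In experiment A both lay near 0, at 0.13 for Gpnmb and -0.04 for Ly86. Among 15 further genes of alternative activation and lipid handling, 1 of the 11 tested was called in experiment B. Lgals3, the galectin 3 gene, which macrophages and other stressed cells express, rose to 522 ± 219 normalized counts in Cre+ hearts (SD, n = 4), against 42.6 ± 31.0 in Cre- hearts (SD, n = 5), at a log2 difference of 3.73 (SE 0.52, limma adjusted p = 0.00673), and was called in each of the 17 alternatives too. In experiment A none of 13 was called. The nearest was Clec10a, a lectin of alternatively activated macrophages, at 2.28 ± 0.460 CPM in CAP2 -/- hearts and 5.05 ± 0.725 CPM in WT hearts (SD, n = 3 each), with a log2 difference of -1.14 (edgeR adjusted p = 0.0772).

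The 3 chains of C1q, which macrophages supply to the complement cascade, moved by similar amounts. They lie within 1 cluster on chromosome 4. C1qa had 44.5, 49.3 and 49.7 CPM in CAP2 -/- hearts, against 38.8, 48.4 and 39.2 CPM in WT hearts. It had 545, 613, 1275 and 752 normalized counts in Cre+ hearts, against 283, 340, 502, 136 and 619 in Cre- hearts. Of the 4 Cre+ hearts 2 were above every Cre- heart, and the groups overlapped in both experiments. Log2 differences were 0.19 for C1qa, 0.16 for C1qb and 0.21 for C1qc in experiment A (smallest edgeR adjusted p = 0.637), and 1.14, 1.09 and 1.03 in experiment B (limma adjusted p = 0.158, 0.174 and 0.194).

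Of 12 complement genes outside C1q, 2 were called in experiment A, both higher. One of them, C4b, complement component 4, rose to 117 ± 18.5 CPM in CAP2 -/- hearts, against 58.7 ± 12.7 CPM in WT hearts (SD, n = 3 each), at a log2 difference of 1.00 (SE 0.16, edgeR adjusted p = 0.00398). C4b is made by fibroblasts and other cells as well as by macrophages. In experiment B none of 11 was called, and C4b stood at 1.68 (SE 0.70, limma adjusted p = 0.196).

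Signalling adaptors, lysosomal genes and chemokines gave no call. Tyrobp, the adaptor through which Trem2 signals, averaged 175 ± 48.7 normalized counts in Cre+ hearts (SD, n = 4) and 85.4 ± 35.4 in Cre- hearts (SD, n = 5), a log2 difference of 1.08 (interval 0.35 to 1.82, limma adjusted p = 0.112), and 11.0 ± 2.26 CPM in CAP2 -/- hearts and 8.90 ± 1.47 CPM in WT hearts (SD, n = 3 each; edgeR adjusted p = 0.681). Fcer1g, the signalling chain of Fc receptors, stood at 1.24 and Laptm5, a lysosomal membrane protein of leukocytes, at 1.03 on the log2 scale in experiment B (limma adjusted p = 0.145 and 0.181). Ptprc, the CD45 antigen of all leukocytes, lay near 0. It had 85, 16, 41 and 61 normalized counts in Cre+ hearts, against 31, 69, 57, 31 and 51 in Cre- hearts, at -0.06 (interval -1.09 to 0.96), a value that turned to 0.031 with TMM scaling, 0.051 with quantile normalization and 0.53 with the mitochondrial share as a term.

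Ctss, the lysosomal protease that trims the invariant chain, had 26.5, 27.7 and 26.3 CPM in CAP2 -/- hearts, against 23.5, 22.1 and 17.4 CPM in WT hearts. The groups did not overlap, but the difference was small beside that of Retnla, at log2 0.35 (SE 0.15, interval 0.03 to 0.67, edgeR adjusted p = 0.405). In Cre+ hearts it had 102, 121, 491 and 187 normalized counts, against 36 at the lowest, 80 in the median and a mean of 87.2 ± 52.5 (SD, n = 5) in Cre- hearts. The groups overlapped, with Cre+ replicate 3 far above the rest, at 1.37 (SE 0.50, limma adjusted p = 0.157). Lyz2, the macrophage lysozyme, and Cybb, the membrane subunit of the phagocyte oxidase, stood at 0.28 and 0.22 in experiment A and 0.44 and 0.49 in experiment B, and the smallest adjusted p of the pair was 0.460, for Lyz2 in limma.

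Ccl2, the ligand of Ccr2, had 21, 19, 8 and 41 normalized counts in Cre+ hearts, against 1, 2, 9, 9 and 21 in Cre- hearts. Of the 4 Cre+ hearts 1 was above the Cre- range, and replicate 3 lay low within it, at a log2 difference of 1.86 (SE 0.58, interval 0.58 to 3.13, limma adjusted p = 0.116). In experiment A it was at 1.09, 1.57 and 1.84 CPM in CAP2 -/- hearts, against 2.81, 0.829 and 1.52 CPM in WT hearts, at -0.24 (edgeR adjusted p = 0.908). Ccl6 and Ccl9, macrophage chemokines of mice that are neighbours on chromosome 11, stood at 0.18 and 0.37 in experiment A and 0.76 and 1.02 in experiment B, with no call. Of 17 other chemokines and receptors, 13 were tested in experiment A and 11 in experiment B without a call. The nearest in experiment A was Ccl24, an eotaxin, at 0.643 ± 0.359 CPM in CAP2 -/- hearts and 2.12 ± 0.357 CPM in WT hearts (SD, n = 3 each), with a log2 difference of -1.66 (edgeR adjusted p = 0.121). In experiment B it was Cx3cl1, the ligand of Cx3cr1, at 113 ± 61.1 normalized counts in Cre+ hearts (SD, n = 4) and 48.0 ± 15.9 in Cre- hearts (SD, n = 5), with a log2 difference of 1.14 (limma adjusted p = 0.116).

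Levels per kilobase of exon set the members' order. In CAP2 -/- hearts Lyz2 led at 165.7 CPM per kilobase, against 137 in WT hearts, followed by Cd74 at 111, against 133, and C1qb at 74.8, against 67.2. In Cre+ hearts Lyz2 led at 901 normalized counts per kilobase, against 748 in Cre- hearts, followed by C1qa at 766, against 361, and Cd74 at 722, against 377. Timd4 was the lowest member in CAP2 -/- hearts, at 0.343 CPM per kilobase, against 0.421 in WT hearts. The lowest in WT hearts was Ccr2, at 0.555 in CAP2 -/- hearts and 0.409 in WT hearts. Ptprc was lowest in Cre+ hearts, at 2.77 normalized counts per kilobase, against 2.61 in Cre- hearts, and Gpnmb in Cre- hearts, at 3.99 in Cre+ hearts and 2.43 in Cre- hearts.

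A few markers of other cells were called in experiment B. Of 10 fibroblast markers 2 rose in Cre+ hearts, Postn, a matrix protein of activated fibroblasts, at log2 3.10 (limma adjusted p = 0.0407) and Mfap5, a microfibril protein, at 2.51 (limma adjusted p = 0.0378); these calls held in 10 and 11 of 18 settings. The 10 summed to 28430 to 51020 normalized counts in Cre+ hearts, against 8519 to 31340 in Cre- hearts, which overlapped. Falls were called for Pln, the phospholamban gene among 10 cardiomyocyte markers, at -1.53 (limma adjusted p = 0.0333), and for Abcc9, a potassium channel subunit among 8 smooth muscle and pericyte markers, at -1.63 (limma adjusted p = 0.0477). These calls held in 10 and 8 of 18 settings. The cardiomyocyte markers summed to 239000 to 346700 in Cre+ hearts, against 276300 to 432400 in Cre- hearts, which overlapped. The widest gap was in the 6 atrial markers, at 83870 to 175200 in Cre+ hearts, against 105 to 9895 in Cre- hearts, with no call among them. Most of the Cre+ sum was Nppa, at 110700 ± 35510 normalized counts in Cre+ hearts (SD, n = 4) and 1379 ± 1045 in Cre- hearts (SD, n = 5). Its log2 difference was 7.62 (limma adjusted p = 0.0742). The gap was not that of Nppa alone, since the median log2 difference of the 6 was 4.61. Unadjusted limma p-values were under 0.05 for 3 of them, all higher, beside 7.89% of all genes. The 12 T and NK cell markers summed to 201 to 246 in Cre+ hearts, against 41 to 246 in Cre- hearts, and the 8 neutrophil markers to 57 to 161, against 11 to 94, with no call in either list. Only 3 of the 12 T and NK cell markers were tested. Thy1 alone averaged 146 ± 55.9 in Cre+ hearts (SD, n = 4) and 86.8 ± 39.8 in Cre- hearts (SD, n = 5), the larger part of their sum. The 8 B cell markers summed to 93 to 279 in Cre+ hearts, against 84 to 244 in Cre- hearts, and the 9 dendritic cell markers to 90 to 222, against 78 to 240. Zbtb46, the only dendritic marker tested, stood at -0.80 (limma adjusted p = 0.215). Sums of the 6 erythroid markers were highest in Cre+ replicate 4 (58610) and Cre- replicate 5 (54760), and lowest in Cre- replicates 4 (3706) and 1 (5529). In experiment A CAP2 -/- replicate 1 stood out, with an erythroid sum of 19250 CPM, against 2506 to 7899 CPM in the other libraries. Its neutrophil sum was 44.2 CPM, against 14.9 to 23.6 CPM in the others. None of these lists held a call. The part of all these cells in the members' values was not tested. Of the other lists closer to macrophages, 4 gave no call in either experiment. Median log2 differences in experiments A and B were 0.01 and 0.66 for the 12 growth factors and lineage regulators of macrophages. They were 0.21 (9 of 11 tested) and 0.31 (8 tested) for the Fc receptors and their partners, 0.27 and 0.88 for the 5 partners of the phagocyte oxidase, and 0.26 (7 of 10 tested) and 0.18 (5 tested) for the inflammasome and cytokine genes. In experiment A the T and NK cell markers summed to 12.9 to 17.9 CPM in CAP2 -/- hearts, against 21.3 to 23.3 CPM in WT hearts, with no call among the 5 tested. Thy1 was again the larger part, at 8.36 ± 1.01 CPM in CAP2 -/- hearts and 13.0 ± 1.14 CPM in WT hearts (SD, n = 3 each). The T and NK cell sums rest largely on that gene, so they are no measure of the number of these cells. Among 10 fibroblast markers 1 was called in experiment A, Mfap5, which rose, at 1.11 (edgeR adjusted p = 0.000943). The atrial markers summed to 3848 to 4586 CPM in CAP2 -/- hearts, against 114 to 156 CPM in WT hearts, with 1 of 5 tested called higher, Nppa. Nppa alone averaged 4265 ± 399 CPM in CAP2 -/- hearts and 95.3 ± 21.3 CPM in WT hearts (SD, n = 3 each). It made up most of these sums, so their gap is that of Nppa and not of the list. Of the cardiomyocyte markers Actc1 was called higher there, at 1.11 (edgeR adjusted p = 2.41e-05). Every gene of the lists given here was above 0 in at least 1 library, except Ccl21a among the lymphatic endothelial markers in experiment B.

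The 2 experiments leaned apart for part of the set. Of 37 members, 22 were above 0 in both, 2 below 0 in both (Timd4 and Retnla), 2 above 0 in CAP2 -/- and below 0 in Cre+ hearts (Ptprc and Folr2), and 11 below 0 in CAP2 -/- and above 0 in Cre+ hearts, among them the 4 MHC class II genes. Only Retnla among them passed the test in either experiment, so these are directions of estimates and not of changes.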

How the data were processed

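RNA of mouse hearts was sequenced in 2 experiments, from Ion Total RNA-Seq libraries (A) and stranded Illumina TruSeq libraries (B) per the labels' protocols. Values exist for 15 of the 16 samples; the fifth Cre+ library, which the series' design text sets outside the study, was not analysed here. The submitters' processing notes name mm10, STAR 2.6.0c and DESeq without a role. Not given in the sources used here: annotation, counting tool and strand setting. The authors deposited estimated counts for A, of which 26.5% of values above 0 are whole, and their own comparison with p-values, log2 fold changes and a mean signal per gene, per the file headers. For B the authors deposited normalized counts in whole numbers, treated as a score since their normalization is not stated; their depth is unknown and no count test was run on them.

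Genes were matched by Ensembl identifier to GENCODE M21 (36308 of 38087 identifiers in A, 54079 of 54232 in B). In A, rounded counts went through the robust quasi-likelihood test of edgeR 4.0.16 (R 4.3.3; TMM, filterByExpr); CPM use the TMM-adjusted total over tested genes, and the SE is the log2 difference divided by the square root of F. In B, log2(value + 1) of genes averaging 10 or more went through limma 3.58.1 (trend, robust) with a term for sex, a scale that understates changes of low genes. P-values were adjusted by Benjamini-Hochberg over all genes tested, with a call at 0.05, and intervals are 95%. Alternatives were DESeq2 1.42.0, other normalizations, filters and pseudocounts, other terms, females only, a replicate block and each library left out. Promoter windows come from RefSeq's GRCm38.p6 table, which held 27 of the 37 members. Both tests were tested on simulated data. Replicates in A differed beyond sampling noise (chi-square per gene of 10.7 to 29.1), and none was a repeat. The labels do not say that libraries are separate animals; where they are not, the p-values cover technical spread alone.

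The members, gene lists and alternatives were chosen with earlier results of these data known. Any of the 37 members could be named. Values per library are given for Lyve1, Timd4, Folr2, Ccr2, the 4 MHC class II genes, Csf1r, Cd68, Adgre1, C1qa and each called member (in part as a range with a median or mean for Cre- hearts); those of Trem2, Cd14, Ctss, Ccl2 and Ptprc were added after their values were seen. Of each other list up to 4 called genes, or else the gene with the smallest p, could be named. One gene that this rule names is not reported here, though counts include it.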

Additional observations from a re-analysis of the deposited data

Results flagged for a closer look

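In the groups of 4 and 5 hearts of experiment B, 12 of 74 combinations of member and group (16.2%) held 1 library far from the others by Dixon's criterion. Over all genes tested in the same libraries the share was 9.66%. The criterion flags about 1 in 20 where values are normally distributed. It was applied here to counts that were not log-transformed, so that rate is no yardstick for either share. The members share their 9 libraries, so the count is no result about the members. Cre+ replicate 3 stood above the other Cre+ hearts for Cd68 (123 normalized counts, next highest 65), Csf1r (620, next 254), Fcgr1 (39, next 16), Mpeg1 (231, next 90) and Msr1 (75, next 20). Cre- replicate 5 stood above the other Cre- hearts for Cd14 (139, next 41), Lyve1 (480, next 153), Itgam (56, next 19), Ccl9 (325, next 122) and Retnla (66, next 19). Cre- replicate 3 did so for Ly86 (51, next 19), and Cre- replicate 1 stood below the others for Ccr2 (4, next lowest 20). Mitochondrially encoded genes made up 23.0% of Cre+ replicate 3, the lowest share, and 69.5% of Cre- replicate 3, the highest. The part of this share in these flagged values was not tested. In the fit between groups with the share as a term, 33 of 37 members were above 0, beside 45.6% of all genes. Their median was 1.05, beside -0.06 over all genes. There 12 members had an unadjusted limma p under 0.05, beside 14 in the main fit, and none was called. Over all genes 36 were called there, against 228 in the main fit.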

How the results depend on the processing

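Genes called numbered 220 in experiment A and moved to 394 with DESeq2 and its size factors, 512 with no filter on low counts and 126 to 275 with 1 library left out. In experiment B the 228 called genes moved to 346 with no filter on low values, 36 with the mitochondrial share as a term, 394 with a replicate block, and 39 to 695 with 1 library left out. Members called in experiment A were 1 in the main test (Retnla) and 1 with each library left out, and 2 with no filter on low counts, where H2-Ab1 was added. Members called in experiment B were 0 in the main limma test, with 14 at an unadjusted p under 0.05, and 1 with no filter, 1 with TMM scaling, 2 with quantile normalization, 5 with a replicate block (Trem2, Tyrobp, C1qb, Ctss and H2-Eb1) and 0 to 2 with 1 library left out, the 2 without Cre- replicate 5. Replicate numbers did not pair the samples: same-numbered libraries correlated in their deviations at -0.17, -0.12 and -0.02 in experiment A and 0.24, -0.11, 0.18 and 0.03 in experiment B, and the block absorbs sex in experiment B. In experiment A the block moved the count of called genes by less than 1.5 times and called 1 member. TMM scaling moved the median log2 difference of all genes in experiment B from -0.12 to -0.02.

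Signs turned in no setting for a called gene. The log2 difference of Folr2 in experiment A was -0.044 with the block. In experiment B that of Cd163 was -0.2 with the mitochondrial share as a term, that of Ptprc 0.031 with TMM scaling, 0.051 with quantile normalization and 0.53 with the mitochondrial share, and that of Folr2 0.12 in females only. With 1 library left out, 16 members in experiment A and 5 in experiment B crossed 0. In experiment A the ranges over these fits were Cd68 -0.029 to 0.5, Adgre1 -0.13 to 0.46, Csf1r -0.18 to 0.018, Mrc1 -0.083 to 0.13, Fcgr1 -0.16 to 0.53, Ptprc -0.058 to 0.39, Lyve1 -0.39 to 0.33, Timd4 -0.99 to 0.13, Folr2 -0.35 to 0.32, Aif1 -0.53 to 0.048, Laptm5 -0.004 to 0.32, Ccl2 -0.53 to 0.33, Gpnmb -0.048 to 0.53, Ly86 -0.3 to 0.15, Msr1 -0.24 to 0.31 and Cybb -0.062 to 0.35. In experiment B the ranges over these fits were Cd163 -0.39 to 0.41, Ptprc -0.38 to 0.37, Lyve1 -0.036 to 0.86, Folr2 -0.61 to 0.12 and Msr1 -0.11 to 0.85. The cause of these shifts was not tested. The depth of experiment B is unknown.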
